A study of Arabidopsis thaliana with 14 samples.

Results

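The 9 Arabidopsis genes ZAT5, ZAT6, ZAT7, ZAT10 (also named STZ), ZAT11, ZAT12 (also named RHL41), AZF1, AZF2 and AZF3 encode zinc finger proteins of the C2H2 type. They were taken by gene ID from the 33602 genes listed for every library, and all 9 passed the filter on low values. Poly-A RNA of 14-day-old seedlings grown in long days was sequenced in 14 libraries, all in the Col-0 background. The tested genotypes were hda6-6 (3 libraries), a splice-site point mutant of the histone deacetylase gene HDA6 also known as axe1-5, hda5-1 (3 libraries) and hda9-1 (3 libraries), which carry mutations in the histone deacetylase genes HDA5 and HDA9, fve-4 (1 library), which has an early stop in the WD40-repeat gene FVE, and fld-6 (1 library), which has a T-DNA insertion in an exon of FLD, a relative of histone demethylase genes. Wild type Col (3 libraries) was the control. Each mutant is a single allele, and the study's methods describe the alleles of hda6-6, fve-4 and fld-6 but not those of hda5-1 and hda9-1. Expression was measured as RPKM, the reads of a gene scaled to its exon length and to the mapped reads of the library, so levels of different genes can be set side by side.

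Proteins of this family carry a pair of zinc fingers that contact DNA and a short EAR motif (ethylene-responsive element binding factor-associated amphiphilic repression) through which such proteins recruit corepressors. Many of the genes are known for a rapid and brief rise of their RNA after cold, salt, wounding, touch, high light or oxidative stress. ZAT10 was named STZ for salt tolerance in yeast, and ZAT12 was named RHL41 for its response to high light. ZAT6 is known for roles in phosphate use and in cadmium tolerance, ZAT7 and ZAT11 have been studied in salt and oxidative stress, and AZF1 and AZF2 act as repressors in osmotic stress and abscisic acid responses.

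Each gene has 1 exon in the TAIR10.1 annotation. ZAT5 (AT2G28200) lies at chr2:12023940-12025370, ZAT6 (AT5G04340) at chr5:1216058-1217362, ZAT7 (AT3G46090) at chr3:16925881-16926883, ZAT10 (AT1G27730) at chr1:9648021-9649323, and ZAT11 (AT2G37430) at chr2:15706285-15707224. ZAT12 (AT5G59820) lies at chr5:24102814-24103794, AZF1 (AT5G67450) at chr5:26918765-26920179, AZF2 (AT3G19580) at chr3:6802903-6804296, and AZF3 (AT5G43170) at chr5:17330945-17331646. AZF3 overlaps QWRF9 on the opposite strand over 408 bases. Strand was not stated to have been used in counting, so reads of the 2 genes cannot be told apart and the values of AZF3 are uncertain.

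The genomic sequence from 250 bases before to 50 bases after each annotated start (TAIR10.1) was searched on both strands for 5 motifs. ZAT6 and ZAT10, which both fell in every mutant, held a 29-base stretch within the first 50 transcribed bases, in the 5′ untranslated region, that differed at 3 positions. Counted from its 5′ end, with the ZAT6 base first, the differences were C10T, A12G and T24C. Of 27431 promoters of the same length, 2 held this stretch with up to 7 mismatches, those of ZAT6 and ZAT10. The capitals mark the reverse complement of the W-box core TTGAC, which is bound by WRKY factors. The stretch opens with the G-box CACGTG, left in lower case. It lies at chr5:1217313-1217341 for ZAT6 and chr1:9649286-9649314 for ZAT10, both read from the minus strand.
ZAT6: cacgtgtaccaaGTCAAaccaaatgtgcc
ZAT10: cacgtgtactagGTCAAaccaaacgtgcc

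The same 2 genes each held 1 GCC-box, the element bound by ethylene response factors, before the start. It is shown in capitals as its reverse complement, at chr5:1217386-1217415 for ZAT6 and chr1:9649388-9649417 for ZAT10. The bases next to it, aa before and at after, were shared by the 2 genes, and bases farther out differed at several positions.
ZAT6: agaattgaagaaGGCGGCattacttactta
ZAT10: aatattttgtaaGGCGGCatcagtactagt

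The other genes that fell in every mutant were AZF2 and ZAT12. AZF2 held a G-box (capitals, chr3:6804263-6804292, minus strand), and ZAT12 held the heat shock element core GAANNTTC (capitals, chr5:24102704-24102733, plus strand).
AZF2: aaacacatctgcCACGTGgtttccatataa
ZAT12: gaaaacacgagGAAGATTCtcatccaaccg

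Over all 9 genes, CACGTG was in 3 (ZAT6, ZAT10 and AZF2) and in 7.68% of the 27431 promoters. GCCGCC was in 2 of the 9 genes and in 2.57% of promoters. GAANNTTC was in 4 (ZAT6, ZAT7, ZAT11 and ZAT12) and in 11.6% of promoters. TTGAC was in 8, with AZF3 as the exception, and in 50.5% of promoters. CGCGTT, the rapid stress response element, was in 0 of the 9 windows and in 3.41% of promoters. Matches are given as letters found and were not tested as binding sites.

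The libraries held about 17900000 to 25600000 mapped reads, a depth worked out from how low RPKM values step. The mutated gene was called lower in its own mutant for HDA6, HDA5, HDA9 and FVE, while FLD stood at 3.52 RPKM in fld-6, against a mean of 3.68 RPKM in Col. The 4 leaf markers summed to between 37144 and 56449 RPKM over all libraries, and the 3 seed markers to at most 2.63 RPKM. The leaf marker CAB2 was called lower in fve-4 (log2 fold change -2.27). The 5 flower markers summed to 2.27 to 8.27 RPKM. Of these, SEP3 was called lower in hda6-6 (-1.36), hda5-1 (-1.84) and fld-6 (-1.47), and PI was called higher in fve-4 (1.26). Of the 5 flower markers, 3 stood at 0 in the fve-4 library and 2 in that of fld-6. The 4 that were tested had a median log2 fold change of -0.69 in fve-4. Summed root markers (5 genes, none at 0) ran from 34.6 to 43.6 RPKM in hda9-1, 33.3 to 40.8 RPKM in hda6-6 and 10.9 to 29.8 RPKM in Col, and 3 of the 5 were called higher in hda9-1 and 1 in hda6-6. The part of any of these markers in the results was not tested. In whole seedlings, fewer cells of a type and less RNA per cell cannot be told apart.

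ZAT10, ZAT12, ZAT6 and AZF2 fell in all 5 mutants, and each of the 11 mutant libraries lay below the lowest Col library for each of the 4 genes. ZAT10 fell most, by 4.55-fold in hda6-6 and between 10.2-fold and 28.7-fold in the other mutants. ZAT7 was higher in hda6-6 alone among the calls against Col, and ZAT5, AZF1 and AZF3 were called in no mutant. The groups did not overlap in that direction for 21.6% of all genes in hda6-6, 18.9% in hda5-1, 15% in hda9-1, 23.4% in fve-4 and 29% in fld-6. To be called, a gene needed an adjusted p under 0.05 (Benjamini-Hochberg, over all 23187 genes tested) and a change of at least 2-fold. In hda6-6, 4 of the 9 genes were called lower and 1 higher, beside 4.96% and 7.95% of all genes tested. In hda5-1, 4 were called lower and 0 higher, beside 3.94% and 5.51% of all genes. In hda9-1, 5 were called lower and 0 higher, beside 3.75% and 2.1%. In fve-4, 5 were called lower and 0 higher, beside 3.98% and 3.9%. With median-of-ratios scaling 27% of the calls in fve-4 were higher, against 49.5% as deposited. In fld-6, 4 were called lower and 0 higher, beside 1.13% and 0.677%. The 9 genes had a median log2 fold change of -0.58 in hda6-6, -1.27 in hda5-1, -1.53 in hda9-1, -1.76 for the fve-4 library and -1.26 for that of fld-6. The median of all genes tested was 0.05 in hda6-6, 0.04 in hda5-1, 0.08 in hda9-1, 0.19 for fve-4 and 0.02 for fld-6. The 5 comparisons share the same 3 Col libraries and are therefore not independent of each other. With 1 library each, fve-4 and fld-6 borrowed the spread of the other genotypes in the fit.

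**Figure D1:**
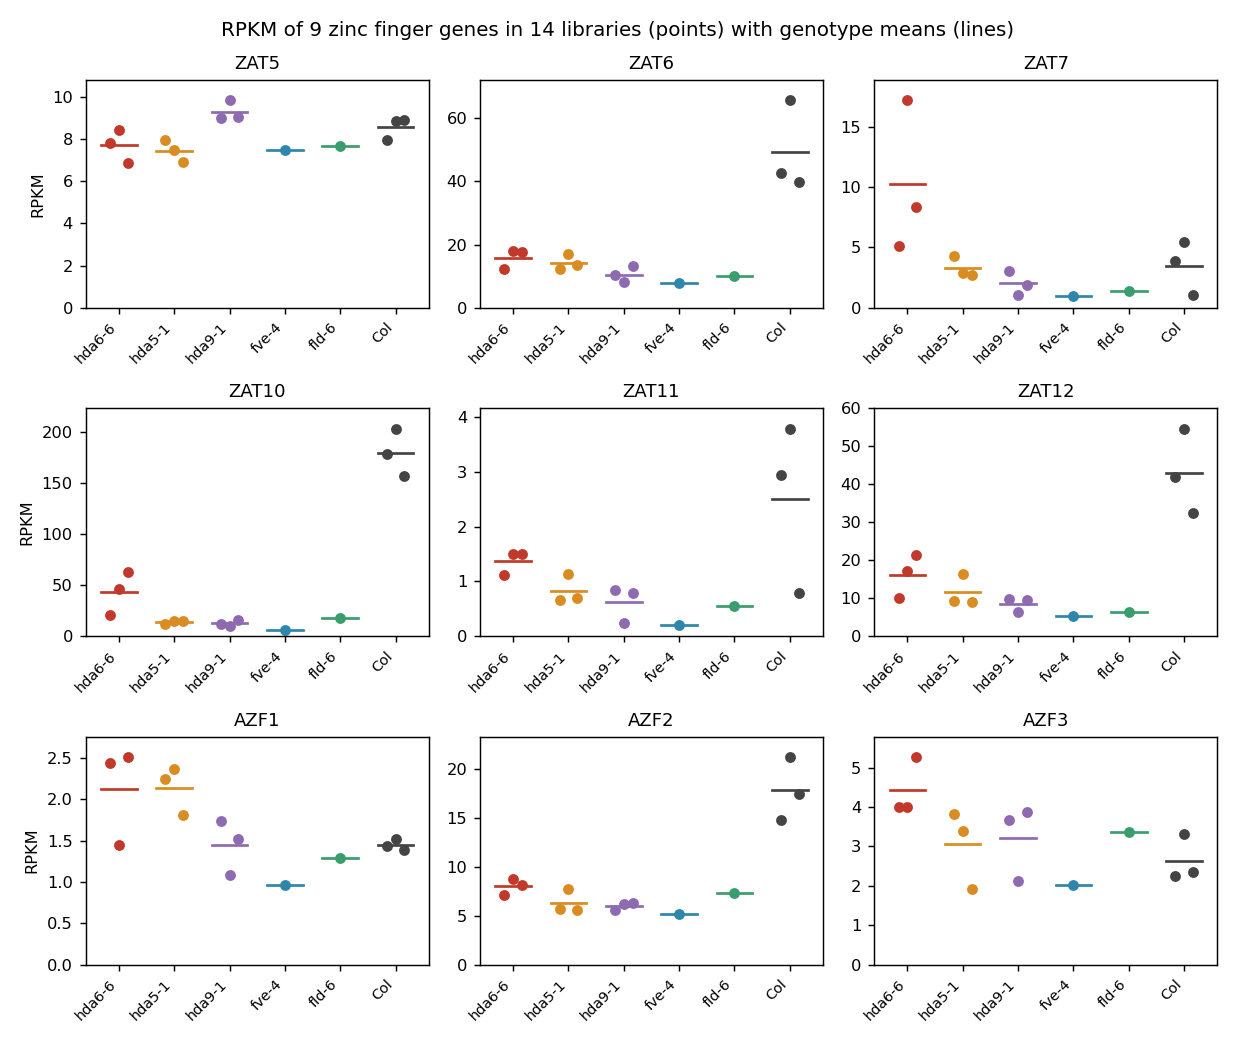
RPKM (vertical axes, linear from 0) of the 9 genes in each library (points) of the 5 mutants and Col, with lines at the genotype means. ZAT6, ZAT10, ZAT12 and AZF2 show all 11 mutant libraries below the 3 Col libraries. For ZAT5, ZAT7, ZAT11, AZF1 and AZF3 the range of the 11 mutant libraries overlaps that of Col. The fve-4 library lies below the 3 Col libraries for these genes also, as for 23.4% of all genes tested. The fld-6 library lies below Col for ZAT5, ZAT11 and AZF1 and above it for AZF3. All hda9-1 libraries lie above Col for ZAT5, all hda5-1 libraries for AZF1 and all hda6-6 libraries for AZF3.

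ZAT10 was the most abundant of the 9 transcripts in Col. It stood at 20.5, 46.4 and 63.0 RPKM in hda6-6, 12.1, 14.6 and 15.1 RPKM in hda5-1, 11.7, 10.3 and 16.1 RPKM in hda9-1, 6.11 RPKM in fve-4 and 17.4 RPKM in fld-6, against 178, 203 and 157 RPKM in Col. The hda6-6 libraries spread widely, and the lowest of them lay above all 8 libraries of the other mutants. The log2 fold change was -2.18 in hda6-6 (standard error 0.32, adjusted p = 0.000237), -3.67 in hda5-1 (adjusted p = 7.61e-06), -3.82 in hda9-1 (adjusted p = 1.29e-05), -4.85 in fve-4 (adjusted p = 6.07e-05) and -3.35 in fld-6 (adjusted p = 0.00234).

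ZAT12 stood at 9.93, 17.3 and 21.4 RPKM in hda6-6, 9.36, 16.3 and 8.997 RPKM in hda5-1, 9.67, 6.43 and 9.504 RPKM in hda9-1, 5.30 RPKM in fve-4 and 6.37 RPKM in fld-6, against 42.0, 54.6 and 32.4 RPKM in Col. The hda6-6 and hda5-1 ranges overlapped each other, and neither reached Col. The fall was 2.71-fold in hda6-6, 3.76-fold in hda5-1 (adjusted p = 0.000654), 4.96-fold in hda9-1 (adjusted p = 0.000264), 7.80-fold in fve-4 and 6.51-fold in fld-6. The adjusted p was 0.00341 for hda6-6, 0.000939 for fve-4 and 0.00597 for fld-6.

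ZAT6 stood at 12.1, 18.0 and 17.6 RPKM in hda6-6, 12.2, 17.1 and 13.4 RPKM in hda5-1, 10.3, 8.01 and 13.3 RPKM in hda9-1, 7.86 RPKM in fve-4 and 10.05 RPKM in fld-6, against 42.7, 65.7 and 39.9 RPKM in Col. Its log2 fold change was -1.62 in hda6-6 (standard error 0.23, adjusted p = 0.000222), -1.77 in hda5-1 (adjusted p = 0.000159), -2.22 in hda9-1 (adjusted p = 5.45e-05), -2.60 in fve-4 (adjusted p = 0.000405) and -2.25 in fld-6 (adjusted p = 0.00365). The 29-base stretch shown above is shared with ZAT10, whose log2 fold changes were farther from 0 in each of the 5 mutants.

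AZF2, a repressor in osmotic stress responses, changed least of the 4. It stood at 7.12, 8.77 and 8.17 RPKM in hda6-6, 5.71, 7.71 and 5.60 RPKM in hda5-1, 5.59, 6.19 and 6.32 RPKM in hda9-1, 5.13 RPKM in fve-4 and 7.29 RPKM in fld-6, against 14.8, 21.2 and 17.5 RPKM in Col. The mutant libraries lay close together, between 5.13 and 8.77 RPKM. The fall was 2.19-fold in hda6-6 (adjusted p = 0.000156), 2.78-fold in hda5-1 (adjusted p = 3.11e-05), 2.89-fold in hda9-1 (adjusted p = 4.44e-05), 3.39-fold in fve-4 (adjusted p = 0.000384) and 2.40-fold in fld-6 (adjusted p = 0.00915).

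In the order of genotype levels on the log scale, Col came first for these 4 genes and hda6-6 second. The step between Col and hda6-6 was called for all 4. The steps between neighbouring mutants further down the order were not called for any of them.

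**Figure D2:**
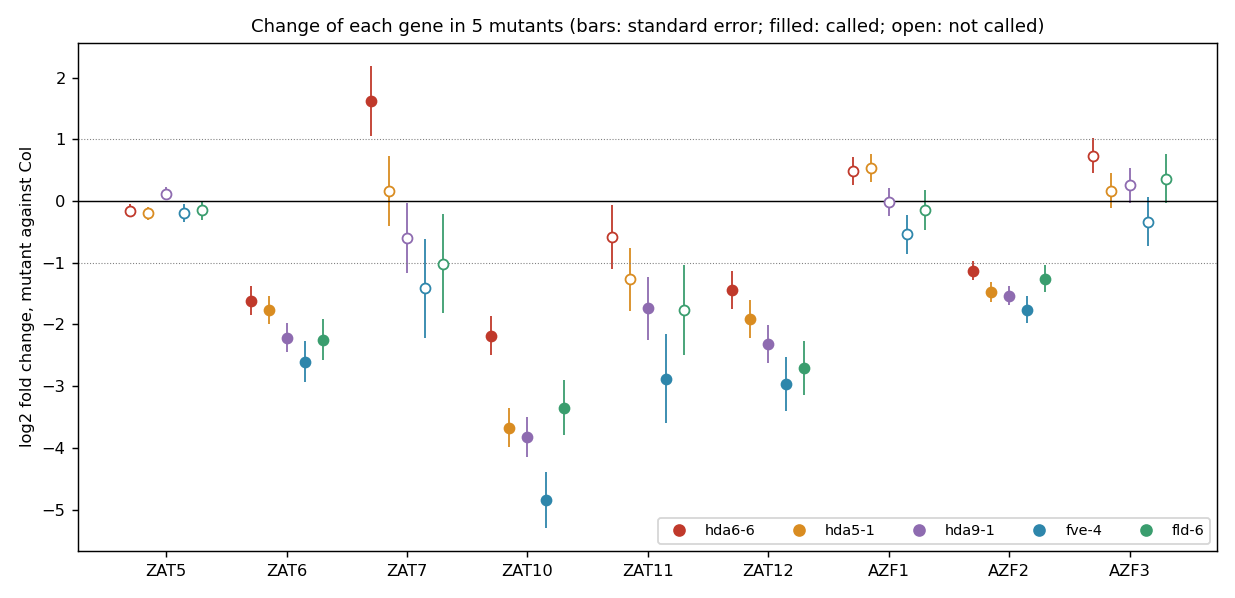
Log2 fold change of each gene in the 5 mutants against Col (vertical axis), with bars of 1 standard error from the fit and filled points for called genes. ZAT6, ZAT10, ZAT12 and AZF2 are filled below -1 in every mutant, with ZAT10 reaching -4.85 in fve-4, and ZAT7 is filled above 1 in hda6-6.

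ZAT11 was the least abundant of the 9 on average in hda6-6, hda5-1, hda9-1, fve-4 and fld-6. It stood at 1.11, 1.5003 and 1.51 RPKM in hda6-6, 0.658, 1.13 and 0.705 RPKM in hda5-1, 0.838, 0.242 and 0.779 RPKM in hda9-1, 0.197 RPKM in fve-4 and 0.545 RPKM in fld-6, against 2.93, 3.78 and 0.794 RPKM in Col. Col replicate 3 was far below the other Col libraries and inside the range of the mutants. ZAT11 fell in hda9-1 (log2 fold change -1.74, adjusted p = 0.0271) and in fve-4 (-2.88, adjusted p = 0.0152). It was not called in hda6-6 (-0.58, adjusted p = 0.414), hda5-1 (-1.27, adjusted p = 0.0901) or fld-6 (-1.77, adjusted p = 0.246). The hda9-1 call of ZAT11 was lost without Col replicate 1 (adjusted p = 0.0959), without Col replicate 2 (0.0999) and without hda9-1 replicate 2 (0.0988). Without Col replicate 3 the log2 fold change of ZAT11 was -1.23 in hda6-6 and -1.92 in hda5-1, and both passed the threshold. The fve-4 value rests on an estimated 4 reads, with an exact Poisson 95% interval of 0.0538 to 0.506 RPKM that covers counting error only.

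ZAT7 was called higher in hda6-6, where ZAT6, ZAT10, ZAT12 and AZF2 were called lower. It stood at 5.16, 17.2 and 8.32 RPKM in hda6-6, 4.29, 2.90 and 2.68 RPKM in hda5-1, 3.08, 1.07 and 1.92 RPKM in hda9-1, 1.01 RPKM in fve-4 and 1.37 RPKM in fld-6, against 3.88, 5.46 and 1.09 RPKM in Col. The lowest hda6-6 library lay below the highest Col library, so the ranges overlapped. The rise in hda6-6 was 3.08-fold (log2 fold change 1.62, standard error 0.57, adjusted p = 0.0447), close to the threshold. It passed the threshold in 9 of 21 alternative settings and stayed positive in all 21. Without hda6-6 replicate 2, the library with the highest value, the log2 fold change of ZAT7 was 1.16 (adjusted p = 0.163), and without Col replicate 3, the lowest Col library, it was 0.96 (adjusted p = 0.174). No other mutant differed from Col by a called amount, with log2 fold changes of 0.16 in hda5-1, -0.60 in hda9-1, -1.42 in fve-4 and -1.02 in fld-6.

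ZAT7 lies 2581 bases from AT3G46080, another C2H2 zinc finger gene. Their coding sequences were 93.6% identical over 486 aligned bases, with a longest identical run of 44 bases, so reads may have been split between them and the values of both are uncertain. AT3G46080 stood at 5.60, 8.86 and 5.38 RPKM in hda6-6, 3.46, 12.2 and 4.15 RPKM in hda5-1, 6.67, 4.56 and 6.10 RPKM in hda9-1, 1.90 RPKM in fve-4 and 6.05 RPKM in fld-6, against 11.9, 10.6 and 7.52 RPKM in Col. It did not follow ZAT7 upward in hda6-6, where its log2 fold change was -0.60 (adjusted p = 0.262). It was called lower in fve-4 (-2.31, adjusted p = 0.0122).

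**Figure D3:**
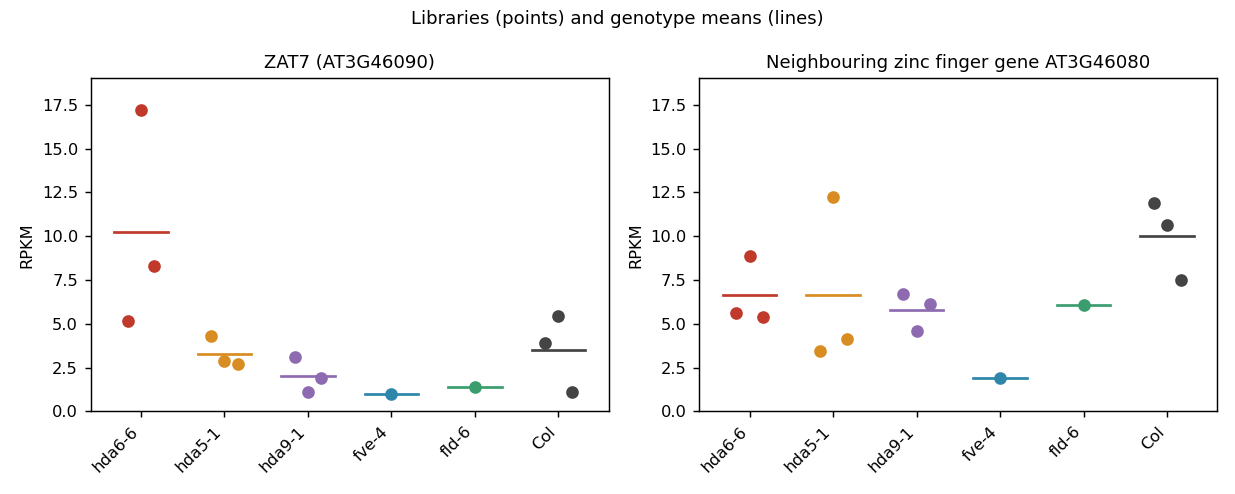
RPKM of ZAT7 (left) and of the neighbouring gene AT3G46080 (right) in each library (points), with lines at genotype means. The hda6-6 mean of 10.2 RPKM is the highest genotype mean of ZAT7, whereas Col has the highest mean of AT3G46080.

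ZAT5 varied least of the 9 genes, with a ratio of highest to lowest library of 1.43. It averaged 7.70 ± 0.791 RPKM in hda6-6, 7.45 ± 0.529 RPKM in hda5-1 and 9.30 ± 0.466 RPKM in hda9-1 (SD, n = 3 each). It stood at 7.47 RPKM in fve-4 and 7.69 RPKM in fld-6, against 8.57 ± 0.535 RPKM in Col (SD, n = 3). None of these differences from Col was called. The 95% interval of the log2 difference from Col was -0.39 to 0.08 in hda6-6 and -0.52 to 0.13 in fve-4.

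AZF1 stood at 2.43, 1.45 and 2.505 RPKM in hda6-6, 2.24, 2.37 and 1.81 RPKM in hda5-1, 1.74, 1.09 and 1.52 RPKM in hda9-1, 0.963 RPKM in fve-4 and 1.29 RPKM in fld-6, against 1.43, 1.52 and 1.39 RPKM in Col. All hda5-1 libraries, as for 24.4% of all genes tested, and 2 of the 3 hda6-6 libraries lay above Col. The log2 fold change was 0.49 in hda6-6 (adjusted p = 0.119, 95% interval -0.01 to 0.98) and 0.53 in hda5-1 (adjusted p = 0.112), and neither was called.

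AZF3 stood at 4.01, 3.999 and 5.26 RPKM in hda6-6, 3.82, 3.40 and 1.93 RPKM in hda5-1, 3.66, 2.13 and 3.87 RPKM in hda9-1, 2.03 RPKM in fve-4 and 3.36 RPKM in fld-6, against 2.25, 3.33 and 2.34 RPKM in Col. All 3 hda6-6 libraries lay above Col, as they did for 27.7% of all genes tested. The log2 fold change in hda6-6 was 0.73 (standard error 0.28, adjusted p = 0.0637) and was not called.

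The 9 genes together summed to 70.2 to 135 RPKM in hda6-6, 57.2 to 73.0 RPKM in hda5-1, 45.4 to 62.4 RPKM in hda9-1, 36.1 RPKM in fve-4 and 55.4 RPKM in fld-6, against 261 to 367 RPKM in Col. ZAT10 made up 29.2 to 46.8% of that sum in hda6-6, 20.0 to 26.5% in hda5-1, 21.1 to 25.9% in hda9-1, 16.9% in fve-4 and 31.5% in fld-6, against 55.2 to 60.2% in Col. ZAT12 made up 14.7% of the sum on average in hda6-6, 18.0% in hda5-1, 15.6% in hda9-1, 14.7% in fve-4 and 11.5% in fld-6, against 13.8% in Col. ZAT5 made up 7.69% on average in hda6-6, 11.98% in hda5-1, 17.5% in hda9-1, 20.7% in fve-4 and 13.9% in fld-6, against 2.83% in Col. The sums have no test.

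**Figure D4:**
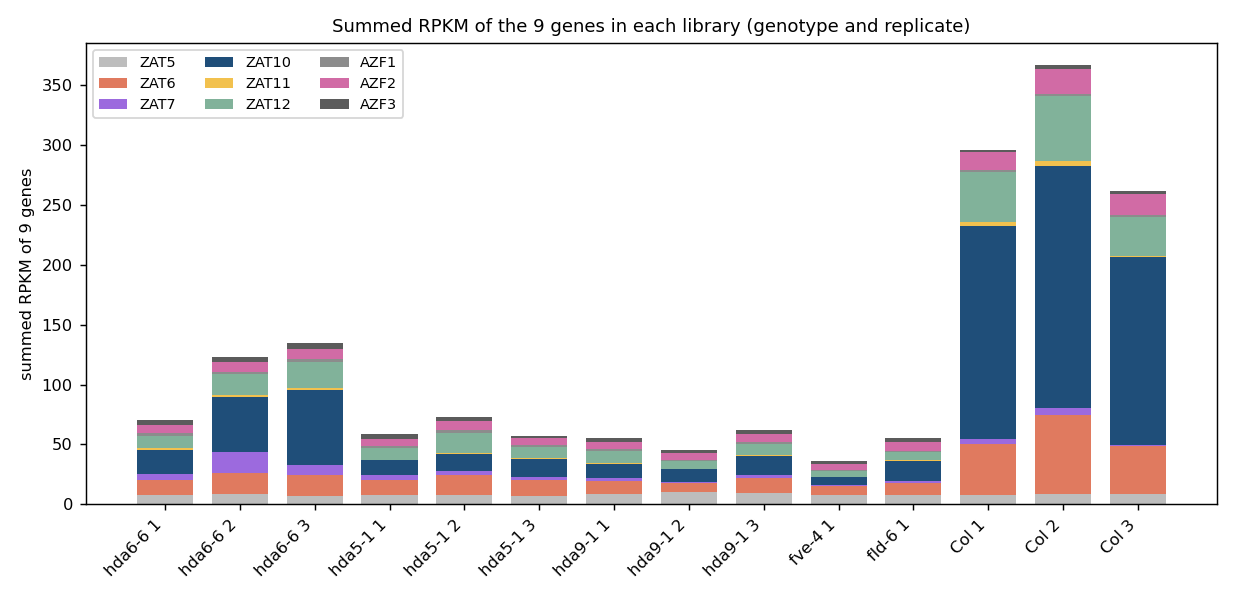
Summed RPKM of the 9 genes (vertical axis, bars from 0) in each library, named by genotype and replicate, with colours for the genes. The Col bars reach 261 to 367 RPKM and are mostly ZAT10, and the highest mutant bar, that of hda6-6 replicate 3, reaches 135 RPKM.

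The mutants were then compared with each other. The Col levels do not enter these differences, but the Col libraries are in the fit and help to set its error, and without Col replicate 3 ZAT11 was also called between hda6-6 and hda9-1 (adjusted p = 0.0385). ZAT10 was higher in hda6-6 than in hda5-1 by 2.80-fold (log2 difference 1.49, adjusted p = 0.00874) and than in hda9-1 by 3.12-fold (1.64, adjusted p = 0.00294). It was also higher than the averaged fve-4 and fld-6 libraries, by 3.76-fold (1.91, adjusted p = 0.00276). Taken singly, ZAT10 was 6.32-fold higher in hda6-6 than in fve-4 (adjusted p = 0.0023), and its 2.24-fold difference from fld-6 was not called (adjusted p = 0.113). Against hda5-1, ZAT10 was the 1 gene of the 9 called higher, beside 3.68% of all genes. Against hda9-1, ZAT10 and ZAT7 were the 2 called higher, beside 6.15% of all genes. Against the averaged fve-4 and fld-6 libraries, 4 were called higher (ZAT7, ZAT10, ZAT11 and ZAT12), beside 5.73% of all genes, and 0 were called lower in any of these 3 comparisons, beside 1.67%, 1.79% and 2.07% of all genes. Against fve-4 alone, 5 were called higher (ZAT7, ZAT10, ZAT11, ZAT12 and AZF1), beside 5.31% of all genes, and 0 lower, beside 2.63%. Against fld-6 alone, ZAT7 was the 1 called higher (adjusted p = 0.0484), beside 5.31% of all genes, and 0 were called lower, beside 2.41%. ZAT12 was not called against fld-6 (1.26, adjusted p = 0.0768).

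ZAT7 was higher in hda6-6 than in hda9-1 by 4.66-fold (log2 difference 2.22, adjusted p = 0.0136) and than in the averaged fve-4 and fld-6 libraries by 7.17-fold (2.84, adjusted p = 0.00771). Every hda6-6 library of ZAT7, of ZAT10 and of AZF3 lay above every library of the other mutants. The same held for 14.9% of all genes against hda5-1, 17.9% against hda9-1, 27.6% against fve-4 and 36.8% against fld-6. AZF3 was not called in any of these comparisons. For ZAT7 the difference of 1.46 from hda5-1 was not called (adjusted p = 0.124, 95% interval 0.22 to 2.70). ZAT12 was higher in hda6-6 than in the averaged fve-4 and fld-6 libraries (1.39, adjusted p = 0.0128), as was ZAT11 (1.74, adjusted p = 0.0462), whose call was lost in 11 of 20 alternative settings. ZAT6 (0.81, adjusted p = 0.0425) and AZF1 (0.83, adjusted p = 0.0334) passed the adjusted p in that comparison but not the 2-fold limit. AZF2 differed by 0.38 (adjusted p = 0.140) and was not called.

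Between hda5-1 and hda9-1, 0 of the 9 genes were called higher and 0 lower in limma, beside 4.27% and 1.99% of all genes. ZAT5, lower in hda5-1 (log2 difference -0.32, adjusted p = 0.0523), and AZF1, higher there (0.55, adjusted p = 0.110), passed only an unadjusted p under 0.05. The share of all genes that pass this looser rule was not counted. Between fve-4 and fld-6, 0 were called in either direction, beside 0.75% higher and 0.798% lower. The largest difference there was that of ZAT10, at 6.11 RPKM in fve-4 against 17.4 RPKM in fld-6 (log2 difference -1.499, 95% interval -2.70 to -0.29, adjusted p = 0.171).

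**Figure D5:**
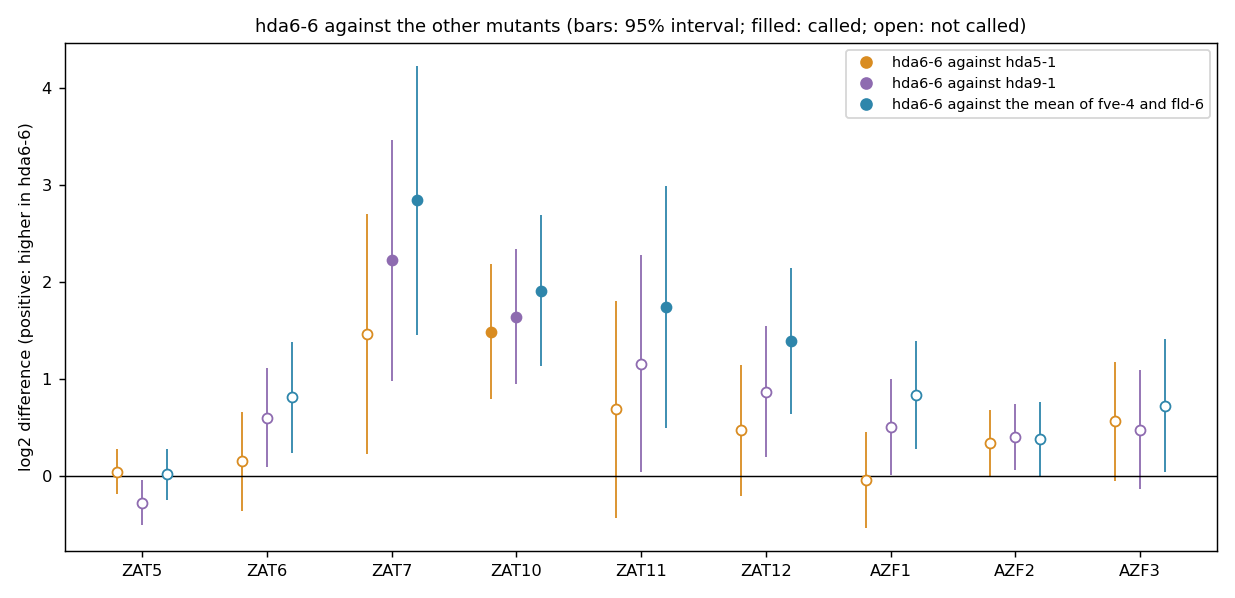
Log2 difference of each gene between hda6-6 and hda5-1, hda9-1 or the averaged fve-4 and fld-6 libraries (vertical axis, positive where hda6-6 is higher), with bars of the 95% interval and filled points for called genes. ZAT10 is filled in all 3 comparisons, between 1.49 and 1.91, and AZF2 in none.

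Within genotypes, some libraries were lowest or highest for many of the 9 genes, given as counts with no test. Col replicate 2 was the highest of the 3 Col libraries for 8 of the 9 genes, with ZAT5 as the exception, and Col replicate 3 was the lowest for 6. The hda6-6 replicate 1 was the lowest of its 3 for 6 genes, namely ZAT6, ZAT7, ZAT10, ZAT11, ZAT12 and AZF2, and the hda9-1 replicate 2 was the lowest for 7. What the libraries shared in handling is not given in the sources used here, and its part in these values was not tested.

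The genes whose pattern was most like each of the 9 were sought among 15870 other genes of mean RPKM 2 or more, by Pearson's r of log2(RPKM + 0.1) over the 14 libraries, as a description with no test. For ZAT10 they were MKK9, a mitogen-activated protein kinase kinase gene (r = 0.98), RTFL12, a small peptide gene (r = 0.97), and ERF104, an ethylene response factor gene (r = 0.97). MKK9 averaged 30.8 RPKM in hda6-6, 19.6 RPKM in hda5-1, 21.6 RPKM in hda9-1, 13.1 RPKM in fve-4 and 26.1 RPKM in fld-6, against 84.1 RPKM in Col. ZAT6 and ZAT12 had the same 2 leading genes, AT1G72910 (r = 0.98 with ZAT6 and 0.97 with ZAT12) and CZF1, another zinc finger gene (r = 0.96 and 0.95). The third was AR781 for ZAT6 (r = 0.96) and AT4G29780 for ZAT12 (r = 0.94). AZF2 was most like ERF-1, MKK9 and AR781 (r = 0.97 each).

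Over the 11 mutant libraries alone, without Col, r with the leading gene was 0.88 for ZAT6, 0.95 for ZAT10, 0.91 for ZAT12 and 0.84 for AZF2. With the next 2 named genes, in the order given, it was 0.76 and 0.77 for ZAT6 and 0.895 for each with ZAT10. It was 0.84 and 0.82 for ZAT12, and 0.81 and 0.84 for AZF2. ZAT11 was most like SIB1 (r = 0.94), BCS1 (r = 0.91) and WRKY53 (r = 0.90), a WRKY factor gene. ZAT7 was most like AT5G41750 (r = 0.92), AT2G32030 (r = 0.91) and AT1G64065 (r = 0.90), and AT5G41750 averaged 7.56 RPKM in hda6-6, against 2.07 RPKM in Col. The highest r was 0.89 for ZAT5 (HERK2), 0.90 for AZF1 (AT1G59970) and 0.86 for AZF3 (Cpn60beta3). The points are the same libraries for every gene, and these values say nothing of shared control.

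Of 14 further zinc finger genes of the C2H2 type, 10 were tested. In hda6-6, 0 were called, beside 4.96% of all genes lower and 7.95% higher (median log2 fold change -0.17). In hda5-1, 0 were called, beside 3.94% and 5.51% (median -0.22). In fve-4, 1 was lower (AT3G46080), beside 3.98%. In hda9-1, 1 was higher (AT3G53600, log2 fold change 1.45, adjusted p = 0.00442), beside 2.1%. In fld-6, 0 were called, beside 1.13% and 0.677%. Some of the 10 were near the floor in Col, where a fall could hardly be called. AT1G02030 stood at 0.131, 0.0477 and 0.119 RPKM there, and AT3G10470 at 0.254, 0.0922 and 0.122 RPKM. AT3G53600 stood at 0.848, 1.19 and 0.854 RPKM in hda9-1, against 0.482, 0.175 and 0.261 RPKM in Col. AT3G46080 in fve-4 was thus the 1 called fall among these relatives, and no test compared the lists.

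Of 7 genes of the corepressors that EAR-motif proteins recruit (TPL, TPR1, TPR2, TPR3, TPR4, SAP18 and HDA19), 0 were called in any of the 5 mutants by limma. The shares of all genes called in 1 direction ran from 0.677% (higher in fld-6) to 7.95% (higher in hda6-6). The log2 fold changes of the 7 genes ran from -0.40 to 0.17 in hda6-6 and, most widely, from -0.46 to 0.62 for the fve-4 library. Of 7 genes placed upstream of the family, 1 was called higher in hda6-6, beside 7.95% of all genes. This was MPK3, a mitogen-activated protein kinase that acts on ZAT10 (log2 fold change 1.15, adjusted p = 0.00152). It stood at 123, 169 and 99.7 RPKM in hda6-6 and 139, 104 and 84.6 RPKM in hda5-1, against 57.1, 72.1 and 45.7 RPKM in Col. Neither mutant overlapped Col, as for 27.7% of all genes above Col in hda6-6 and 24.4% in hda5-1. MPK3 was not called in hda5-1. HSFA4A, a heat shock factor gene, was called lower in hda6-6 (-1.03, adjusted p = 0.00132), hda9-1 (-1.07, adjusted p = 0.0018) and fve-4 (-1.10, adjusted p = 0.013). CAMTA3, a calmodulin-binding factor gene, was called higher in hda5-1 (1.14, adjusted p = 6.07e-05). It stood at 36.2, 35.5 and 32.3 RPKM there, against 14.9, 17.8 and 14.4 RPKM in Col. In hda6-6 it stood at 30.4, 32.3 and 26.3 RPKM, also above Col, and was not called.

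Of 15 genes described as acting downstream, 14 were tested. In hda6-6, 4 were called lower and 1 higher, beside 4.96% and 7.95% of all genes. In hda5-1 they were 3 lower and 2 higher, beside 3.94% and 5.51%, and in hda9-1 5 lower and 0 higher, beside 3.75% and 2.1%. In fve-4 they were 4 lower and 0 higher, beside 3.98% and 3.9%, and in fld-6 1 lower and 0 higher, beside 1.13% and 0.677%. The cold-response factor genes CBF1, CBF2 and CBF3 were called lower in hda6-6, hda5-1, hda9-1 and fve-4, and CBF3 also in fld-6. CBF3 stood at 0, 0.0512 and 0.0515 RPKM in hda6-6, 0.145, 0.259 and 0.193 RPKM in hda5-1, 0.431, 0.347 and 0.722 RPKM in hda9-1, 0.108 RPKM in fve-4 and 0.608 RPKM in fld-6, against 4.43, 6.01 and 10.8 RPKM in Col. The mutant values of CBF3 rest on few reads. PCS1, a phytochelatin synthase gene of cadmium detoxification, was called higher in hda6-6 (log2 fold change 1.25, adjusted p = 3.61e-05) and hda5-1 (1.88, adjusted p = 3.07e-06). SAUR63, an auxin-responsive gene that AZF1 and AZF2 repress, was called lower in hda6-6 (-1.05, adjusted p = 0.00122) and hda9-1 (-1.13, adjusted p = 0.00133). PAD4, a defense gene, was called lower in hda9-1 (-1.12, adjusted p = 0.00179) and fve-4 (-1.44, adjusted p = 0.00443), and EDS1, its partner, was called higher in hda5-1 (1.23, adjusted p = 0.000163).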

How the data were processed

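RNA of 14 libraries was analysed. The deposited values are RPKM, which the authors computed with RackJ from reads mapped to TAIR10 with Bowtie2 (version not given) after base calling with CASAVA 1.8. Nothing was mapped or counted again. Genotypes were taken from the sample titles. Per the study's methods the 3 libraries of hda6-6 and of Col are biological repeats. No source used here says so for hda5-1 and hda9-1, whose spread may be technical.

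Values were transformed to log2(RPKM + 0.1), so fold changes are on that scale and understate the change of low genes. Testing covered the 23187 genes whose RPKM passed 0.1 in 3 or more libraries and used limma 3.58.1 in R 4.3.3 (intensity trend, genotype as the only factor, all 14 libraries in 1 fit, 8 residual and 3.83 prior degrees of freedom). All adjusted p-values are from limma with Benjamini-Hochberg adjustment over all genes tested, and all are two-sided. The code was tested on simulated data. With 3 against 3 libraries an exact test cannot reach the threshold, and none was used.

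Reads per gene were estimated from RPKM steps and used only for depth and counting error. For each gene but AZF3 the exon length was fitted so that reads came out whole, which they did (tolerance 0.05 reads) in at least 11 of 14 libraries, so this is no independent check of the estimate. Motifs and positions come from RefSeq TAIR10.1. Protein sequences were not used here. Named were all 9 genes, of each other list at most the 4 with the largest change among those called in hda6-6 and any gene that a count of 5 or fewer singled out, and for likeness the 3 genes of highest r. The members, lists and tests were chosen with earlier results of these data known. Alternatives were other pseudocounts, filters, scalings and thresholds, a replicate block, fits of the compared groups alone, and leaving out each replicate.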

Additional observations from a re-analysis of the deposited data

How the results depend on the processing

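The calls of ZAT6, ZAT10, ZAT12 and AZF2 as lower in hda6-6, hda5-1, hda9-1, fve-4 and fld-6 (20 calls) were lost in 0 of 412 values, 20 or 21 a call, under 9 settings and 12 left-out replicates. The setting with the adjusted p alone drops the fold limit and could not lose a call. Leaving out a replicate of a genotype outside a comparison cannot move its fold change and alters only the shared spread. The 412 values are therefore not separate checks. AZF2 in hda6-6 came closest to the 2-fold limit, with a log2 fold change of -1.00005 with 1 replicate left out. No value of the 9 genes that was called changed sign. The rise of ZAT7 in hda6-6 depended on the settings, and the cause was not tested. The number of the 9 genes called higher in hda6-6 against Col was 1, and it was 0 with a pseudocount of 0.01 (adjusted p of ZAT7 = 0.0523), with no filter (0.122), with trimmed-mean scaling (0.0512) and with only the 2 groups fitted (0.0652), and 0 to 1 over left-out replicates. ZAT7 was lost there without Col replicate 1 or 3, hda6-6 replicate 2 or 3, any hda5-1 replicate, or hda9-1 replicate 3. The number higher in hda6-6 than in hda9-1 was 2, against 1 with no filter, where ZAT7 was lost, and 1 to 3 over left-out replicates. ZAT7 lost its call against hda9-1 without hda6-6 replicate 2 and without hda9-1 replicate 2. The number higher in hda6-6 than in hda5-1 was 1, against 2 with only the 2 groups fitted, where ZAT7 passed. The number lower in fve-4 than in fld-6 was 0 to 1 over left-out replicates, and it was 1 (ZAT10) without hda6-6 replicate 1. ZAT11 fell short in hda9-1 and fve-4 with no filter (adjusted p = 0.0857 and 0.0514), and in hda9-1 with only the 2 groups fitted (0.0764).

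Of 18 same-numbered pairs of libraries, 10 deviated together with r over 0.1 (range -0.12 to 0.38), namely 6 of 6 pairs numbered 1 and 2 of 6 each for the other two numbers, and 6 of 12 libraries correlated best with their own number. The highest r of all, 0.45, was between hda5-1 replicate 2 and hda9-1 replicate 3. As not every same-numbered pair deviated together, the numbers were not taken as pairs. The fve-4 and fld-6 libraries are labelled replicate 1 only. Anything tied to that number therefore cannot be told apart from genotype in these 2 mutants. With the replicate block, the log2 difference of ZAT11 between hda6-6 and the averaged fve-4 and fld-6 libraries was 1.85 (adjusted p = 0.0748, against 0.0462 without it), and the block changed no other call of the 9 genes. Scaling by median of ratios moved the median of all genes in fve-4 to 0.01, and higher calls to 27% of all calls there, against 49.5% as deposited. The low counts of ZAT11 limit its precision. Between fve-4 and fld-6 the share of higher calls was 25.1% with that scaling, against 48.5% as deposited. Fits of the compared groups alone were not run for fve-4 and fld-6, which have 1 library each.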
